A study of Mus musculus with 8 samples.

Results

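Among 3213 cells kept from the colonic lamina propria of 8 mice, 111 cells (3.45%) carried an intermediate amount of complement C1q RNA together with RNA of the chemokine receptor Ccr2, and are called C1q-intermediate Ccr2+ cells here. Complement C1q is made by resident macrophages and encoded by C1qa, C1qb and C1qc, while CCR2 is the receptor by which blood monocytes enter tissue. A kept cell had passed a minimum of unique molecular identifiers (UMIs, each 1 captured RNA molecule) and of detected genes, and had at most 5% mitochondrial UMIs and no hemoglobin UMI. A member had at least 10 and under 60 C1q UMIs per 10000 UMIs, under 20 of Hp, Chil3 and F13a1 (genes of freshly arrived monocytes), under 10 of the inflammatory genes Il1rn, Clec4e, Saa3, Arg2 and Ccl24, at least 1 Ccr2 UMI, and no UMI of Xcr1, Clec9a, Flt3, Cd3d, Cd3e or Cd3g, which mark dendritic and T cells. The members were thus chosen by the measured levels of these genes, which are therefore no findings.

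The study asked what CD98hc, the amino acid transporter subunit encoded by Slc3a2, does in colonic macrophages and their progenitors. All 8 mice were female littermates aged 6 to 12 weeks that carried CD98hc flox/flox and the Cre of CX3CR1 CreER-YFP, a tamoxifen-inducible recombinase with a yellow fluorescent protein expressed from the Cx3cr1 locus. The strain is named CD98hcΔCX3CR1. The 4 mice of the cKO group (mice 5 to 8) received 100 µl of tamoxifen at 20 mg/ml daily for 5 days, the 4 control mice (mice 1 to 4) received corn oil, and cells were taken on day 7. CD11b+ cells positive for CCR2, CD64 or both were sorted, and each mouse gave 1 droplet library on the same day. As control mice had no tamoxifen, effects of the drug and of the deletion cannot be told apart, and a monocyte that does not yet express Cx3cr1 need not have recombined.

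Blood monocytes that enter the colon pass through a series of states, often called the monocyte waterfall. They lose Ly6C, acquire MHC class II and then take on the genes of tissue macrophages, C1q among them, while Ccr2 is lost. Type I interferon signalling is a separate axis in which a transcription factor complex binds a short repeated GAAA motif and switches on antiviral genes.

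The 4 control mice held 78 members of 1863 kept cells (4.19%) and the 4 cKO mice 33 of 1350 (2.44%). The control mice gave 47, 12, 2 and 17 members and the cKO mice 3, 15, 5 and 10, so control 1 held the most. As a share of each mouse's kept cells this was 6.49%, 2.38%, 2.35% and 3.10% in the control mice and 3.61%, 4.30%, 1.03% and 2.3% in the cKO mice, with means of 3.58% ± 1.97 and 2.81% ± 1.45 (SD, n = 4). The shares of the groups overlapped, and no test was made because levels of the genes in the rule decide the count. Without the demand for a Ccr2 UMI the mean shares were 4.72% in the control and 5.47% in the cKO mice, the opposite order.

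The median member held 4696 UMIs (range 752 to 18873) and 1566 genes, with 15 C1q UMIs and 36.7 per 10000. Ccr2 was present as exactly 1 UMI in 27 members. The window was thinly filled at its lower edge, with 2 members at 10 to 12 C1q UMIs per 10000 and 23 cells at 8 to 10 just outside, and denser at its upper edge, with 27 members at 48 to 60 and 38 cells at 60 to 72. C1q alone kept out 453 cells below the window and 366 above it that met every other criterion, and Ccr2 alone kept out 55. C1q RNA was also counted in kept cells with markers of other cell types. Of 65 cells with T cell markers (median 2741 UMIs), 1.54% lay in the C1q window, of 93 cells with stromal markers (median 4823 UMIs) 3.23%, and of 81 cells with B and plasma cell markers (median 7055 UMIs) 17.3%. In these sets 2, 2 and 12 cells held 60 or more C1q UMIs per 10000. Whether the sets hold macrophages or mixed cells was not tested, so these shares are no clean background.

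**Figure D1:**
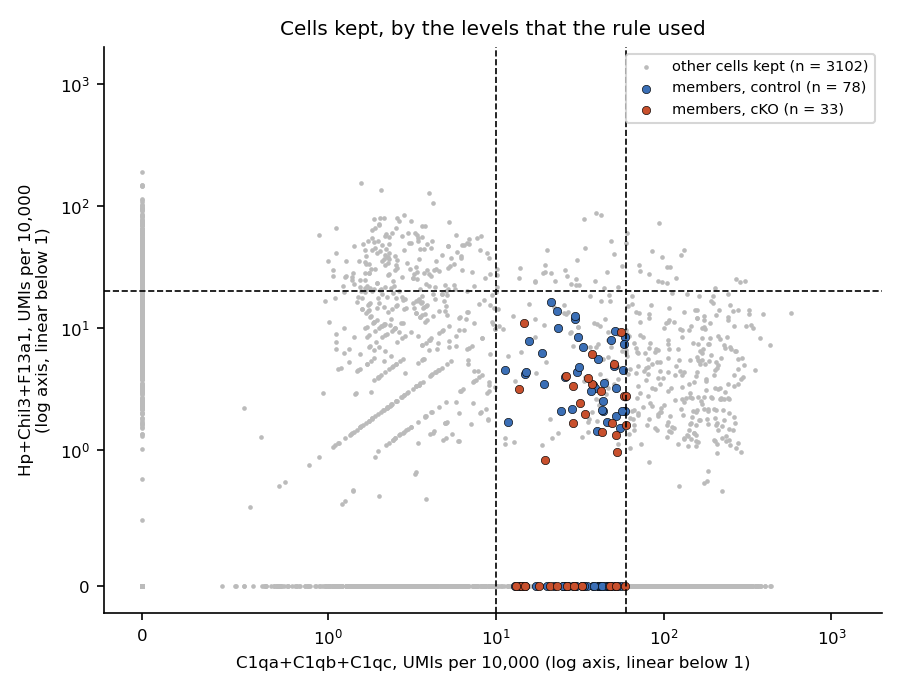
The 111 members (78 control, 33 cKO) among 3102 other kept cells, by C1qa+C1qb+C1qc UMIs per 10000 (horizontal axis) and Hp+Chil3+F13a1 UMIs per 10000 (vertical axis), both on log axes that are linear near 0. The members fill the C1q window from 10 to 60 below 20 on the vertical axis, a boundary set by the rule.

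Markers of lymphocytes, granulocytes and structural cells were few in the members, with 1 exception, and the type 2 dendritic cell list, present in 97 members with up to 38 UMIs in 1 cell, is described with MHC class II. None of the 4 natural killer cell genes had a UMI. Mast cell markers appeared in 1 member, eosinophil and epithelial markers in 2 each, endothelial markers in 8 and stromal markers in 14. T cell markers appeared in 3 members, through Il7r alone. The rule had excluded cells with Cd3d, Cd3e or Cd3g, so the absence of these 3 genes is no finding. Of the neutrophil list, S100a8, S100a9, Retnlg and Cxcr2 were at 0 and the rest gave at most 2 UMIs in a cell, in 25 members. B and plasma cell markers were present in 71 members, mostly as Jchain, the joining chain of secreted antibodies, and Ms4a1 was at 0. A single member of cKO 8 held 2006 Jchain, 13 Mzb1 and 7 Cd79a UMIs among 18873 UMIs, 30.4% of all member UMIs of that mouse. It also held 176 Ly6c2, 25 Bst2 and 23 Ly6a UMIs. It was not called a doublet, and several results are also given without it. The doublet caller marked 1 member, in control 3, and no member shared its barcode string with another library.

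Levels below are CPM, the UMIs of a gene per 1000000 UMIs summed over the members of a mouse, and medians are over the 5 mice with at least 10 members (control 1, 2 and 4, cKO 6 and 8). For comparison, 361 Hp- and Chil3-high monocytes (at least 20 UMIs of Hp, Chil3 and F13a1 and under 10 of C1q per 10000) and 972 C1q-high macrophages (at least 60 of C1q) were taken from the same mice. Since all 3 populations were cut by expression, their differences are a description without a test.

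Of 4 further genes proposed as markers of these cells, the C-type lectin receptors Clec4a2 and Clec4a3 stood above the other cells in most mice, Lyz1 did so in 3 of 5 mice and Nr1h3 in 0 of 5. Clec4a2, an inhibitory receptor of myeloid cells, had a median of 451 CPM against 352 in monocytes, 584 in macrophages and 320 in all other kept cells, and lay between monocytes and macrophages in 5 of 5 mice. Clec4a3, its close relative, had 454 CPM against 311 in the other cells, below the 581 CPM of monocytes. Both lectins were above the other cells in 4 of 5 mice. Lyz1, a lysozyme, had 2740 CPM against 2855 in the other cells and 9070 in monocytes, and Nr1h3, the oxysterol receptor LXRα, had 11.9 CPM against 30.8 in the other cells and 75.1 in macrophages. The members of all 8 mice held 1, 0, 0, 1, 1, 1, 0 and 3 Nr1h3 UMIs, so Nr1h3 does not mark these cells, and the name used here follows the rule. That the cells derive from monocytes was not measured.

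Monocyte genes outside the rule stood lower in the members than in monocytes, and Plac8 and Ly6c2 remained above macrophages. Plac8, a gene of circulating monocytes, had 2435 CPM in members against 7756 in monocytes and 788 in macrophages, with the members between in 5 of 5 mice. Ly6c2, which encodes the Ly6C antigen of classical monocytes, had 139 CPM against 1517 and 65. Lyz2, the lysozyme of all monocytes and macrophages, had 10881 CPM in members, close to the 10321 CPM in macrophages and below the 38646 CPM in monocytes. Vcan, a further gene of circulating monocytes, had a median of 0 CPM. Summed over the 19 classical monocyte genes, the median member held 162 UMIs per 10000, the median monocyte 433 and the median macrophage 132. This list was not cut to genes outside the rule, and Lyz2 made up much of the sum. Lyz2 gave 16711 of 21903 CPM in control 1 members and 6236 of 11927 CPM in cKO 6 members. In pooled monocytes it gave 26397 of 46278 CPM and in pooled macrophages 13122 of 15390 CPM.

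MHC class II, by which macrophages present peptides to CD4+ T cells, stood near the level of macrophages. H2-Aa, a class II α chain, had 12924 CPM in members against 2406 in monocytes and 13787 in macrophages, and Cd74, the invariant chain, had 29376 CPM against 7361 and 31959. The 11 class II genes made up 683 UMIs per 10000 in the median member, 18.1 in the median monocyte and 740 in the median macrophage. Members and macrophages lay close together on this list and monocytes far below. Mgl2, a lectin of macrophages and type 2 dendritic cells, had 356 CPM in members and 319 in macrophages, whereas Itgae and Zbtb46, which mark conventional dendritic cells, had no UMI in any member. The other 10 genes of the type 2 dendritic cell list, several of which macrophages also use, had UMIs in members. The list gave 6.54 UMIs per 10000 in the median member, 4.30 in the median monocyte and 5.05 in the median macrophage. Cd209a, a lectin of monocyte-derived and type 2 dendritic cells, was at 134 and 319 CPM in members of control 1 and 2 and at 0 in those of the other 6 mice, against 35.7 and 4.05 CPM in macrophages of control 1 and 2. The part of dendritic cells in these results was not tested.

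Several genes of mature macrophages stood between the other populations, and others did not. The adhesion receptor Adgre1 (F4/80) had 187 CPM in members against 154 in monocytes and 524 in macrophages, the tetraspanin Cd63, a protein of late endosomes, had 233 against 27 and 766, and the tetraspanin Cd81 had 233 against 20 and 785. Ms4a7 had 187 CPM in members and 1173 in macrophages, and Apoe, the lipid carrier apolipoprotein E, had 9776 CPM against 5153 in monocytes and 20252 in macrophages. Pf4 and Ccl8, chemokine genes of resident macrophages, were at 48 and 40 CPM in members but 666 and 692 CPM in macrophages. Mrc1 was below monocytes in control 4 (23.8 against 46.8 CPM) and cKO 8 (16.1 against 29.1 CPM). Pooled Fcgr1 was at 362 CPM in monocytes and 335 CPM in macrophages, with 316 to 412 CPM in members pooled in bands of C1q. The 31 measured genes of the maturation list gave 141 UMIs per 10000 in the median member, 40.3 in the median monocyte and 340 in the median macrophage. Apoe gave 12218 of 17872 CPM of this list in control 1 members and 3127 of 8558 CPM in cKO 8 members.

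**Figure D2:**
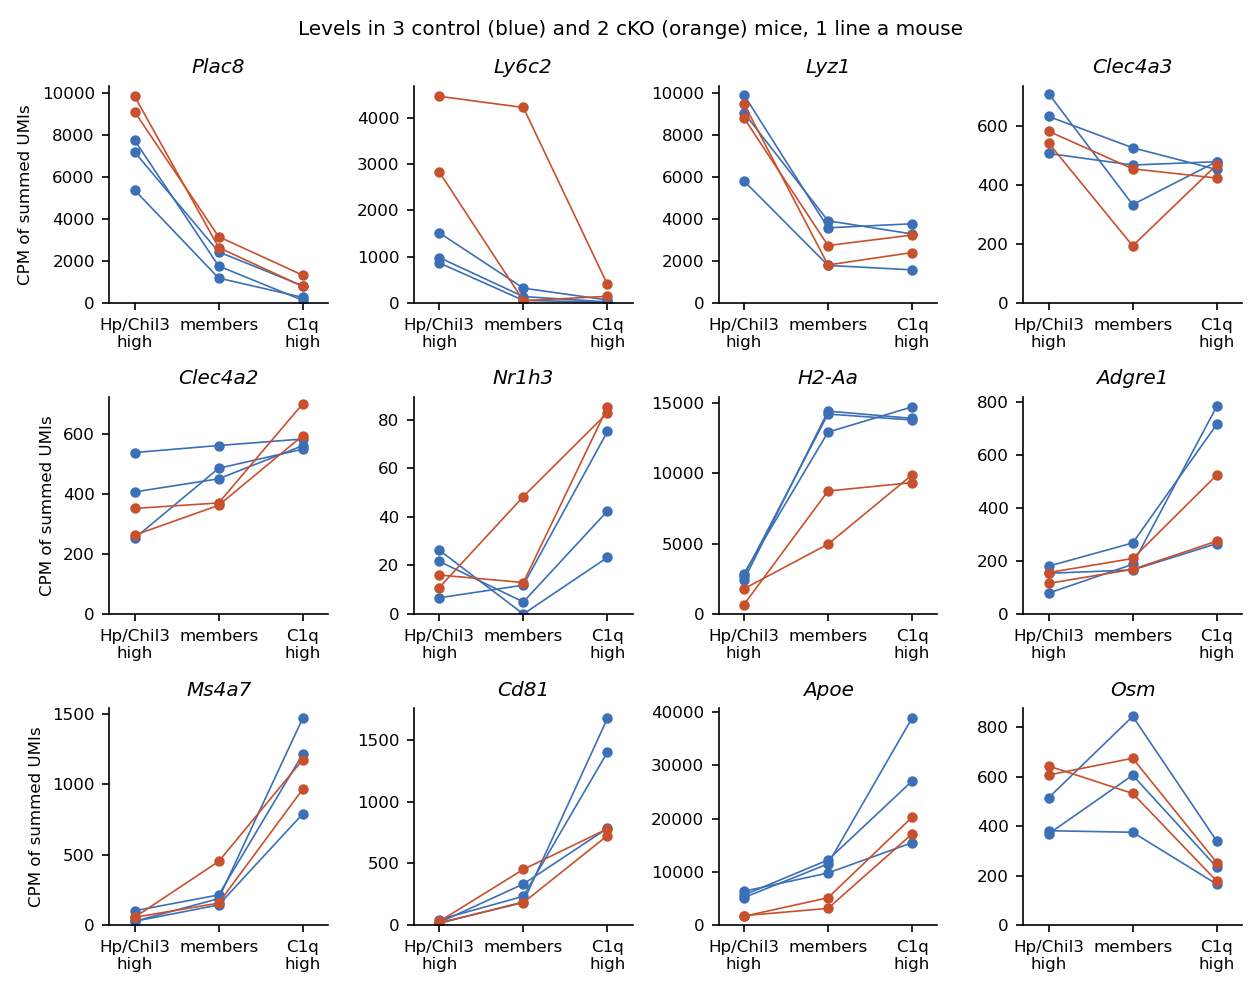
CPM of 12 genes (vertical axes) in Hp- and Chil3-high monocytes, the C1q-intermediate Ccr2+ members and C1q-high macrophages (horizontal axis), 1 line for each of 3 control and 2 cKO mice. Plac8 and Ly6c2 fall from monocytes to members, H2-Aa is already high in members, and Cd81, Ms4a7 and Apoe are highest in macrophages.

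Osm, the cytokine oncostatin M, led the genes that were both abundant and higher in members than in all other kept cells. It had a median of 606 CPM against 514 in monocytes and 234 in macrophages, and the members held 122, 20, 1, 71, 8, 52, 5 and 33 Osm UMIs in mice 1 to 8. With a prior of 10 CPM on both sides, its median ratio to the other cells was 2.72, and members exceeded the other cells in 5 of 5 mice. Mertk, a receptor for apoptotic cells, had the highest ratio (3.17) on 1, 0, 0, 3, 0, 7, 0 and 4 UMIs, and Skint3, Gdf15, Atxn2l, Inhba, Ubn1, Vdr, Pla2g15, Zfp703, Tmem159, Sgf29, Ccdc15, Lars2 and Snx29 followed with ratios down to 2.12. Il1b, the cytokine interleukin 1β, was at 5074 CPM in members, 4816 in monocytes and 2602 in macrophages. Neither Osm nor Il1b was particular to the members. Both were above monocytes in control 1, control 4 and cKO 6 and below them in control 2 and cKO 8. Monocytes pooled over all 8 mice, 265 of 361 from cKO mice, held 718 CPM of Osm and 7028 CPM of Il1b. Members pooled in bands of C1q held 392 to 852 and 4460 to 5614 CPM. At the other end, Jchain (0.05 of the other cells) and the stromal genes Sparc, Dcn and Col3a1 had the lowest ratios.

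Within the window, Cd63, Id3 and Mrc1 stood higher in members with more C1q, while MHC class II and several other macrophage genes did not follow C1q. In members with 10 to 20, 20 to 30, 30 to 45 and 45 to 60 C1q UMIs per 10000 (19, 25, 34 and 33 cells), pooled Cd63 was 40.2, 73.7, 215 and 418 CPM, starting at the 40.6 CPM of monocytes and ending below the 821 CPM of macrophages. Pooled Id3, an inhibitor of DNA binding that acts in macrophage identity, was 80.4, 131, 316 and 569 CPM over the same bands, above the 160 CPM of macrophages in the upper bands. Mrc1, the mannose receptor, was at 60.3, 81.9, 101 and 163 CPM. The lowest band holds 19 cells only, so its level is loosely set. The class II list did not follow this order, with 64968, 61286, 68540 and 66223 CPM against 10160 in monocytes and 77095 in macrophages. Nor did Cd81 (402, 205, 209 and 235 CPM), Ms4a7 (181, 131, 373 and 222 CPM), Adgre1 (191, 213, 260 and 209 CPM) or Pf4 (20.1, 57.3, 177 and 105 CPM). Apoe rose over the bands, at 7525, 7954, 9190 and 9765 CPM.

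The order was tested within mice, with the members of each mouse divided at 30 C1q UMIs per 10000 and the mouse kept as a block in edgeR. The upper part held 30, 8, 9, 10 and 4 members in control 1, 2 and 4 and cKO 6 and 8. The lower part held 17, 4, 8, 5 and 6. As C1q, a level used by the rule, sets the parts, the test only describes which genes go with C1q inside the window. Of 2592 genes tested, 1 was called (0.0386%), and it was Cd63. Cd63 was at 181, 58.4, 357, 276 and 1286 CPM in the upper part of control 1, 2 and 4 and cKO 6 and 8, against 47.0, 0, 142, 64.4 and 26.9 CPM in the lower part. It was higher in the upper part in 5 of 5 mice, by 2.59 on the log2 scale (SE 0.49, edgeR adjusted p = 0.00436), and by 1.76 without cKO 8, where it was no longer called (edgeR adjusted p = 0.159), nor with the window divided at 20 (3.12, edgeR adjusted p = 0.110). DESeq2 called no gene (10 genes higher and 7 lower at an unadjusted p under 0.05).

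Id3 was higher in the upper part in 3 of 3 control mice, at 550, 701 and 691 CPM against 153, 0 and 142 CPM. In the cKO mice it was at 64.9 and 0 CPM in the upper part against 0 and 135 CPM in the lower. Its difference of 1.93 (log2, SE 0.47) missed the threshold in these 5 mice (edgeR adjusted p = 0.103) and passed it in all 8 mice (2.22, edgeR adjusted p = 0.00145), where 0.0772% of genes were called, and without the Jchain-rich member (2.18, edgeR adjusted p = 0.00947). Whether the parts differ more in control than in cKO mice was not tested.

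**Figure D3:**
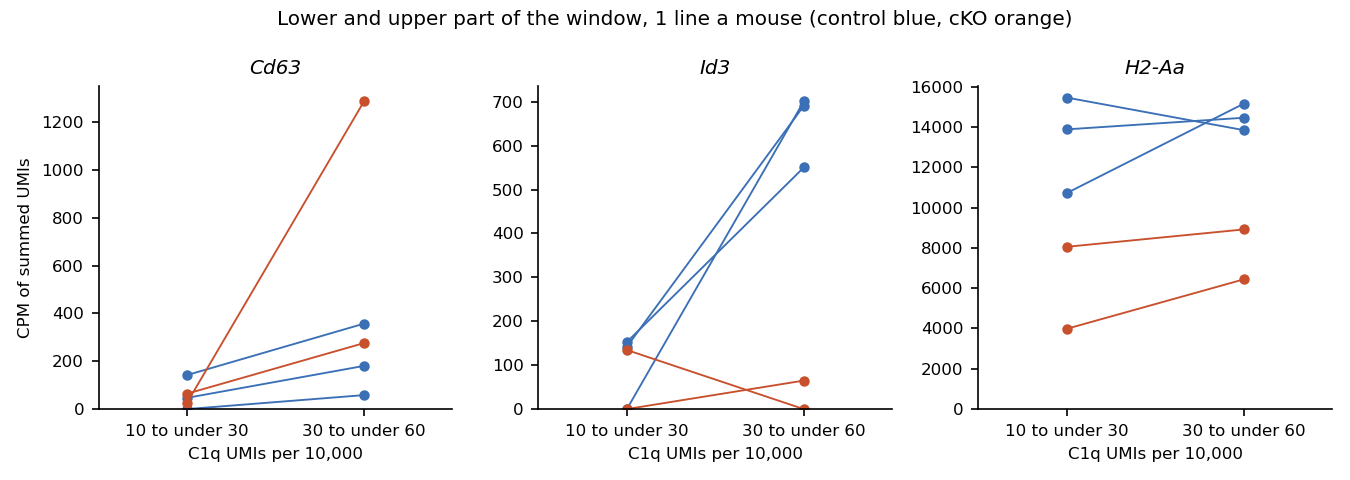
CPM of Cd63, Id3 and H2-Aa (vertical axes, from 0) in members with 10 to under 30 and 30 to under 60 C1q UMIs per 10000, 1 line a mouse, 3 control and 2 cKO mice. Cd63 is higher in the upper part in 5 of 5 mice, Id3 is higher in the 3 control mice, and H2-Aa changes little by comparison.

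For the effect of the treatment, UMIs of the members were summed per mouse and compared between cKO and control with edgeR's quasi-likelihood test. The main comparison used the 3 control and 2 cKO mice with at least 10 members, and it is given beside all 8 mice, of which control 3 holds 2 cells (10484 UMIs), cKO 5 holds 3 and cKO 7 holds 5. Of 2592 genes tested, 1 rose (0.0386%), Ifi27l2a, and 1 fell (0.0386%), Id3. At an unadjusted p under 0.05, 120 genes were higher and 103 lower. In all 8 mice 7 genes rose (0.270%) and 0 fell, with 84 genes lower at an unadjusted p under 0.05. The median UMIs per member had means of 4724 ± 299 in 3 control and 4633 ± 465 in 2 cKO mice (SD). An exact two-sided permutation test gave p = 0.8, where 0.2 is the smallest possible, so it cannot show that depth was alike. In all 8 mice the means were 4853 ± 356 and 5644 ± 1255 UMIs (SD, exact two-sided permutation p = 0.343).

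Slc3a2 (chromosome 19, 8706882 to 8723369, GRCm38), the targeted gene, was at 452, 356, 286 and 736 CPM in the members of control mice and 173, 324, 375 and 435 CPM in those of cKO mice. The groups overlapped, and the log2 fold change of -0.43 (SE 0.34) was not past the threshold (edgeR adjusted p = 0.813). Recombination removes exon 3 per the study's methods, while reads lie at the 3′ end of a transcript, so this value does not check the deletion. EYFP, the reporter at the Cx3cr1 locus, gave 28, 1, 3 and 12 UMIs in control members and 3, 0, 0 and 2 in cKO members, or 139, 18.7, 286 and 143 CPM against 173, 0, 0 and 32.2 CPM. Its log2 fold change of -2.86 (SE 0.98) did not pass (edgeR adjusted p = 0.414), and Cx3cr1 itself had a median of 0 CPM. Clec4a2 (-0.42, edgeR adjusted p = 0.756), Clec4a3 (-0.40, edgeR adjusted p = 0.850) and Lyz1 (-0.43, edgeR adjusted p = 0.786) were not called either.

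Ifi27l2a, an interferon-inducible gene of a mitochondrial protein family, was the gene called higher in cKO members. It was at 859, 1144, 1240 and 1770 CPM in the members of control mice and 4271, 4356, 6298 and 4352 CPM in those of cKO mice. Each cKO mouse was above each control mouse, those with few cells included. The log2 fold change was 1.83 (SE 0.27, edgeR adjusted p = 0.0179) in 5 mice and 1.95 (edgeR adjusted p = 0.00145) in 8. Leaving out 1 of the 5 mice gave 1.62 to 2.14, and the call held only without control 4 (edgeR adjusted p = 0.00476 there and 0.0575 to 0.367 for the others), while in the fit on all mice it held whichever of the 8 mice was left out. The gene lies at 103442167 to 103443680 of chromosome 12 (GRCm38, minus strand).

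The same direction was seen across the interferon response list, which does not hold Ifi27l2a. Of its 60 genes, 57 were in the table and 25 passed the filter on low counts. The log2 fold change was above 0 in 22 and below 0 in 3 (Irf9, Samhd1 and Daxx), with a median of 1.06 against 0.01 over all genes tested. None was called by edgeR's quasi-likelihood test in 5 mice, where 16 had an unadjusted p under 0.05, DESeq2 called Bst2, the likelihood ratio test Bst2 and Rtp4, and the fit without a filter Bst2, Irf7, Isg15, Ly6a and Rtp4, and in 15 of the 25 the cKO mice lay above the control mice without overlap, against 12.8% of all genes. In all 8 mice the median was 1.44 against -0.02 over all genes, 4 genes were called (0.270% of all genes) and 10 of the 25 did not overlap, against 2.24% of all genes. Summed over the 57 genes, the members of control mice held 5312, 4818, 6200 and 7056 CPM and those of cKO mice 11890, 9723, 29091 and 13184 CPM.

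The 4 list members called in all 8 mice were Isg15, Bst2, Irf7 and Ly6a. Isg15, a ubiquitin-like protein made in response to interferon, was at 59.6, 37.5, 0 and 190 CPM in control mice and 519, 376, 3336 and 274 CPM in cKO mice, with log2 fold changes of 1.82 (SE 0.49, edgeR adjusted p = 0.246) in 5 and 3.5 (edgeR adjusted p = 0.00236) in 8 mice. Bst2, which tethers budding virus to the cell surface, was at 119, 93.7, 0 and 143 CPM against 577, 311, 900 and 758 CPM, with log2 fold changes of 2.14 (SE 0.41, edgeR adjusted p = 0.0561) and 2.40 (edgeR adjusted p = 0.00236). Irf7, the transcription factor that amplifies interferon production, was at 14.9, 169, 0 and 190 CPM against 635, 246, 750 and 629 CPM. These 3 genes did not overlap between the groups, and all 3 were at 0 in control 3, where 1 UMI is worth 95.4 CPM. Without control 3, of these 4 genes only Bst2 was still called. Isg15 (1.99, edgeR adjusted p = 0.0688) and Irf7 (2.24, edgeR adjusted p = 0.0688) also lost their calls without cKO 7, a mouse with 5 members, and Irf7 did so without control 1 (1.77, edgeR adjusted p = 0.408). Ly6a (Sca-1) was at 49.6, 37.5, 0 and 166 CPM against 1154, 51.9, 1687 and 951 CPM, with cKO 6 within the control range. The Jchain-rich member of cKO 8 held 25 Bst2 and 23 Ly6a UMIs. Without it all 4 genes were still called in 8 mice, where 0.275% of all genes rose.

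Oas1a, another list member, was not called and was chosen here after its values were seen. Oas1a, a sensor of double-stranded RNA, was at 119, 150, 95.4 and 190 CPM against 346, 350, 750 and 387 CPM, without overlap (log2 fold change 1.33, SE 0.36, edgeR adjusted p = 0.246). Of the 4 tested GTPases that interferon γ induces, 1 was above 0 and 3 below, with a median of -0.29 in 5 mice and 0.27 in 8, so the direction turned.

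**Figure D4:**
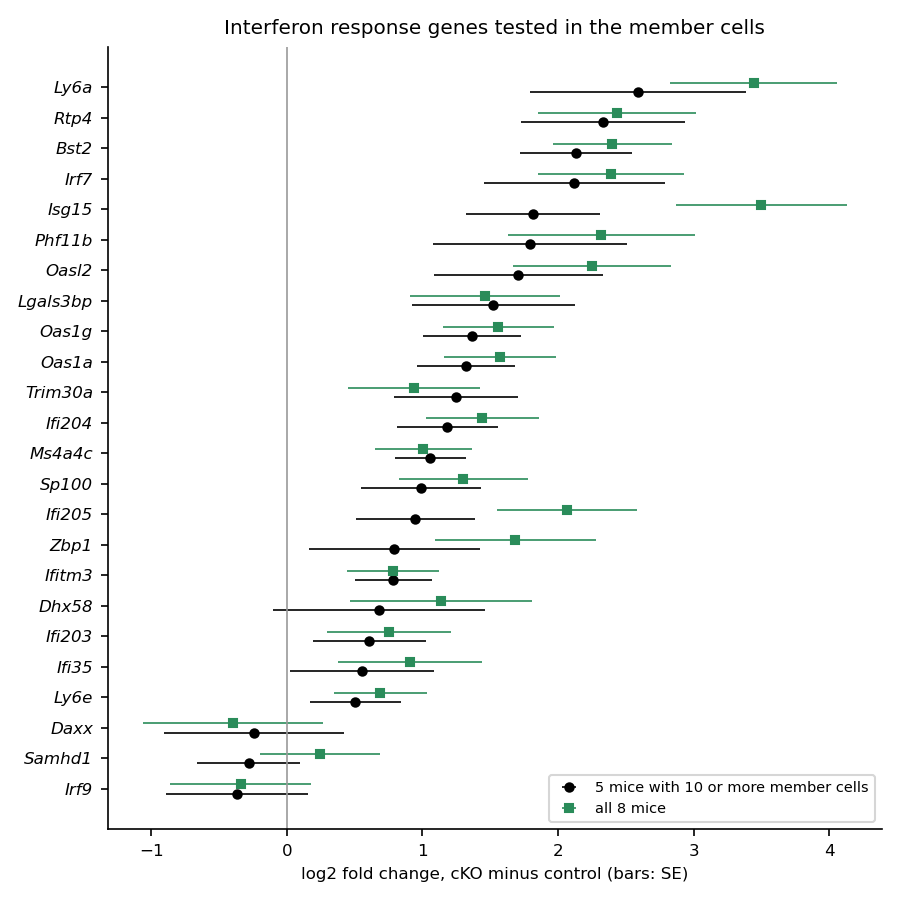
Log2 fold change of cKO over control with its standard error (horizontal axis) for the tested genes of the interferon response list except 1 that is not reported here (vertical axis), in the 5 mice with at least 10 members and in all 8 mice. In the 5 mice most genes lie above 0, and Irf9, Samhd1 and Daxx lie below.

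Promoter sequence of Isg15 and Bst2 is shown because both were called in all 8 mice and have the interferon-stimulated response element. The letters GAAA, any 2 bases and GAAA again were searched on both strands in the 250 bases before each gene's start in RefSeq (GRCm38.p6), with overlapping matches joined. They occurred in 3.46% of 27025 genes with a promoter sequence and 4.88% of 2027 such genes among those tested. Of the interferon response list, 19 of 45 genes with a promoter sequence had them (42.2%), and 8 of 18 among those tested (44.4%), which describes the list and not its change in these cells. The 150 bases before the start of Isg15 (chr4:156200819-156200968, minus strand) and of Bst2 (chr8:71537473-71537622, minus strand) follow, 5′ to 3′, with the matched letters in capitals.
Isg15: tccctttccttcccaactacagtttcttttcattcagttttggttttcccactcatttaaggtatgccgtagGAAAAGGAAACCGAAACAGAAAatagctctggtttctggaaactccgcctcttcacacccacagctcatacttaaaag
Bst2: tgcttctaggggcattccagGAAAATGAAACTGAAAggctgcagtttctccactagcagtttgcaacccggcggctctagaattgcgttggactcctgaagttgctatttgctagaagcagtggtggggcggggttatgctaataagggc
Isg15 held 3 overlapping matches from 78 to 57 bases before the start, and Bst2 held 2 from 130 to 115 bases before it. The promoter sequences of Irf7, Ly6c2 and Id3 held no match, which says only that these letters are not in those windows.

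Id3 (chromosome 4, 136143497 to 136145755, GRCm38), whose level along the window is given above, fell in the comparison of 5 mice. It was at 382, 450, 95.4 and 416 CPM in the members of control mice and 346, 51.9, 337 and 80.6 CPM in those of cKO mice, on 77, 24, 1 and 35 UMIs against 6, 4, 9 and 5 UMIs. Among mice with at least 10 members the 3 control mice lay above both cKO mice, whereas control 3, cKO 5 and cKO 7, with few cells, did not follow this split. The log2 fold change was -2.62 (SE 0.42, edgeR adjusted p = 0.0266) in 5 mice and -1.32 (edgeR adjusted p = 0.456) in 8. Leaving out any of the 5 mice kept the direction (-2.29 to -2.95) and lost the call, as did a window of 15 to under 45 C1q UMIs (-2.27, edgeR adjusted p = 0.313). Without the Jchain-rich member it was -3.02 (edgeR adjusted p = 0.00997), in a fit with 3 genes higher (0.118%) and 3 lower (0.118%).

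Ly6c2 and Jchain were also called in all 8 mice, and both lost their calls without control 3 (edgeR adjusted p = 0.156 for each). Ly6c2 was at 139, 56.2, 0 and 321 CPM in control mice and 404, 51.9, 2587 and 4223 CPM in cKO mice, so the groups overlapped. Its log2 fold change in 8 mice was 3.48 (edgeR adjusted p = 0.00417), and 2.88 (edgeR adjusted p = 0.0260) without the Jchain-rich member, which alone held 176 Ly6c2 UMIs. In that fit 7 genes rose (0.275%) and 1 fell (0.0393%). Jchain was at 243, 244, 0 and 261 CPM against 808, 117, 112 and 32605 CPM, and without that member its log2 fold change in 8 mice was 0.36 (edgeR adjusted p = 0.969).

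**Figure D5:**
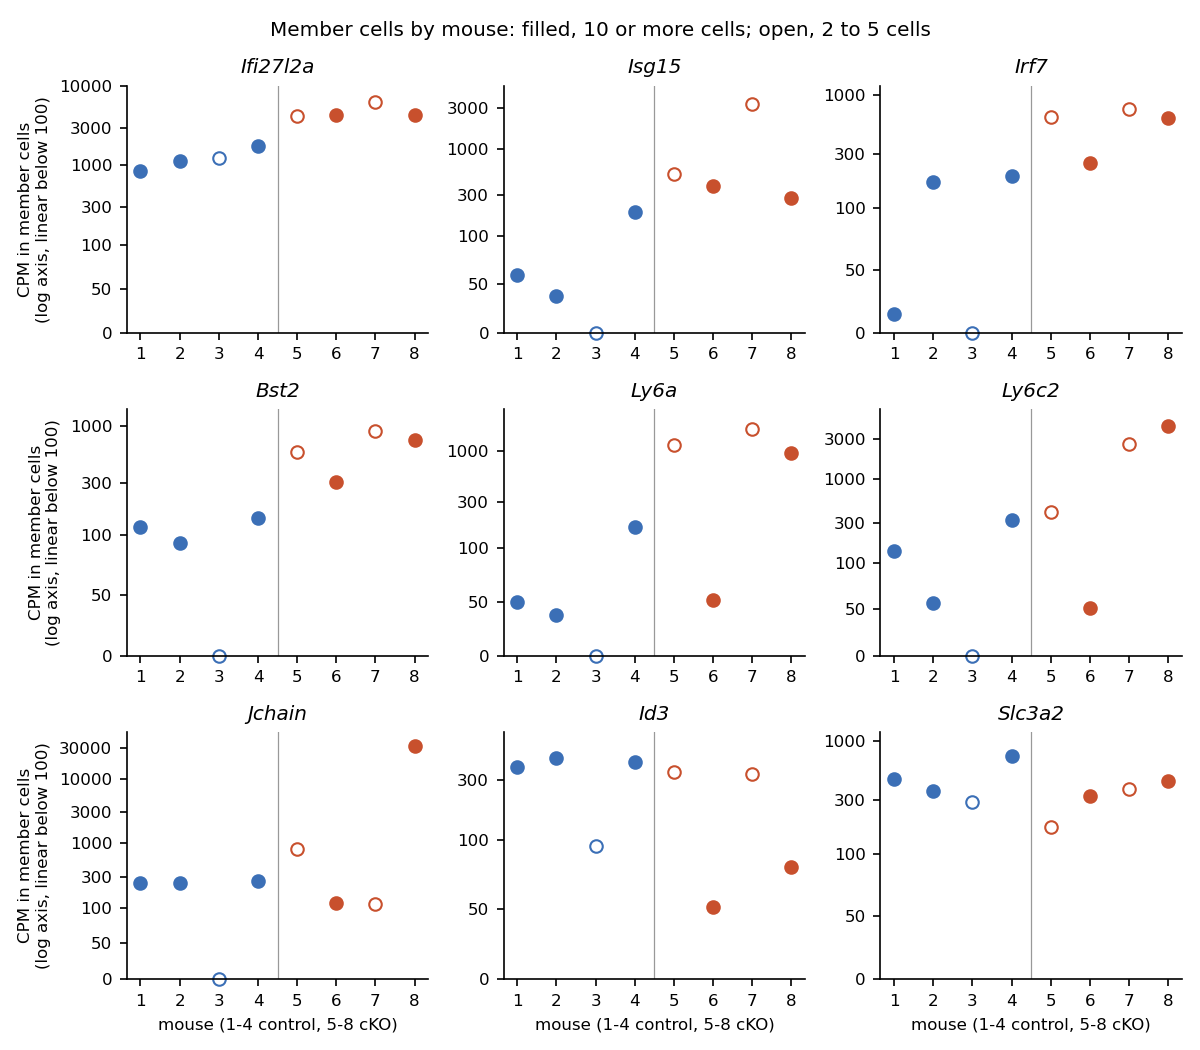
CPM in the members of each mouse (vertical axes, log above 100 CPM and linear below) for Ifi27l2a, Isg15, Irf7, Bst2, Ly6a, Ly6c2, Jchain, Id3 and Slc3a2, control mice 1 to 4 in blue and cKO mice 5 to 8 in orange, filled for 10 or more members and open for 2 to 5. Ifi27l2a lies at 859 to 1770 CPM in control and 4271 to 6298 CPM in cKO mice, and Slc3a2 overlaps.

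Most MHC class II genes stood lower in cKO members, though none was called by edgeR's quasi-likelihood test in 5 mice, while DESeq2 called H2-Aa lower. Of 7 class II genes tested, 1 had a log2 fold change above 0 and 6 below, with a median of -0.76 against 0.01 over all genes, 4 had an unadjusted p under 0.05, and in 4 the cKO mice lay below the control mice without overlap, against 13.7% of all genes. In 8 mice the median was -0.86 and 3 genes did not overlap (2.35% of all genes). Without the Jchain-rich member, which held 30.4% of the member UMIs of cKO 8, the medians were -0.63 in 5 and -0.78 in 8 mice. H2-Aa was at 14208, 14418, 9824 and 12924 CPM in control mice and 2136, 8738, 5773 and 4964 CPM in cKO mice (log2 fold change -0.998, SE 0.25, edgeR adjusted p = 0.211). Each cKO mouse was below each control mouse. Lower class II was not particular to members. In monocytes of the same 5 mice H2-Aa, H2-Ab1 and H2-Eb1 were called lower (-1.06, -1.04 and -1.07, edgeR adjusted p = 0.0364, 0.0172 and 0.0194). H2-DMb2 was not called there (-0.86, edgeR adjusted p = 0.696). For H2-Aa the effect in members differed from that in monocytes by 0.11 (SE 0.24), not past the threshold. Summed over the 11 class II genes, the members held 79904, 76212, 53415 and 70560 CPM in control mice and 16681, 61579, 46073 and 31945 CPM in cKO mice, with cKO 6 within the control range. H2-Aa, H2-Ab1 and H2-Eb1 were called as lower when cKO 6 was left out, with cKO 8 as the only cKO mouse, assumed to vary as the others.

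The lists of macrophage maturation and monocyte genes were divided. Of 22 maturation genes tested, 10 had a log2 fold change above 0 and 12 below (median -0.12, but 0.07 in 8 mice). Apoe, one of them, was at 12218, 11474, 3243 and 9776 CPM in control mice and 3579, 5121, 3187 and 3127 CPM in cKO mice, where control 3 lay within the cKO range. Its log2 fold change of -1.42 (SE 0.26, edgeR adjusted p = 0.0546) missed the threshold and passed it without the Jchain-rich member (-1.29, edgeR adjusted p = 0.0286). Of 13 classical monocyte genes, 4 were above 0 and 9 below (median -0.30, but 0.05 in 8 mice). Lyz2 was at 16711, 18111, 14403 and 10881 CPM against 4964, 6236, 7160 and 8445 CPM, and Plac8 at 1187, 1762, 858 and 2435 CPM against 3232, 2645, 3974 and 3159 CPM. Neither was called (edgeR adjusted p = 0.211 for Lyz2 and 0.455 for Plac8). In 4 against 4 mice Lyz2 lay lower in cKO mice without overlap, as did 2.35% of all genes. Plac8 lay higher without overlap, as did 2.24% of all genes.

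The gene groups that follow held no gene called by edgeR's quasi-likelihood test in 5 mice. Of 18 apoptosis genes tested, 12 were above 0 and 6 below (median 0.11), and 4 had an unadjusted p under 0.05, all higher: Cycs, encoding cytochrome c, and the survival genes Bcl2a1a, Bcl2a1b and Bcl2a1d, whose near-identical sequences make their separate counts uncertain. Bcl2a1b was at 472, 506, 191 and 475 CPM in control and 519, 765, 1312 and 999 CPM in cKO mice (log2 fold change 0.89, SE 0.26, edgeR adjusted p = 0.375). In monocytes of the same 5 mice Bcl2a1a, Bcl2a1b and Bcl2a1d were called higher (2.02, 1.67 and 1.72, edgeR adjusted p = 2.08e-04, 2.08e-04 and 0.00109). The 5 tested amino acid transport genes, Slc3a2 among them, had a median of 0.07 (-0.0046 in 8 mice), the 5 tested targets of ATF4, the factor that answers amino acid shortage, 0.49, and the 8 tested genes of cholesterol synthesis and uptake -0.56 (2 above 0, 6 below). Of 8 lectins of the Clec4a family and its relatives, 1 was above 0 and 7 below (median -0.65), and DESeq2 and the likelihood ratio test called Mgl2 of this list lower (log2 fold change -1.88, SE 0.39, edgeR quasi-likelihood adjusted p = 0.0724). A further 17 immediate early and dissociation genes had 6 above and 11 below (median -0.22, but 0.13 in 8 mice). Median log2 fold changes were also taken for 12 MHC class I genes (0.22), 8 chemokines (0.02), 5 cytokines (-0.01), 12 lysosomal proteases (-0.07), 3 genes of LXR and its targets (-0.60, Apoe among them), 4 type 2 dendritic cell genes (-0.22) and 3 cell cycle genes (0.11, but -0.23 in 8 mice).

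Whether the cKO effect in the members differed from that in monocytes or macrophages of the same mice was tested as an interaction, with both sums of a mouse kept together. Both tests share the member sums. Their p-values rest mostly on a spread shared by all genes and less on that of each gene between mice. Against monocytes, Jchain, carried by the Jchain-rich member of cKO 8, had an edgeR adjusted p of 2.32e-27. A small p-value in these fits thus does not mean that the mice were alike. For Ifi27l2a, Isg15 and Irf7 no difference passed the threshold. Ifi27l2a differed by 1.83 in members and 1.63 in monocytes, a difference of 0.16 (SE 0.25, edgeR adjusted p = 1), and from the 2.15 in macrophages by -0.40 (SE 0.28, edgeR adjusted p = 1). For Isg15 the differences were -0.01 (SE 0.98) and -0.41 (SE 0.44), and for Irf7 -0.10 (SE 0.46) and -0.76 (SE 0.44), each with an edgeR adjusted p of 1. Each SE was derived from the log2 difference and its test statistic, so it is unreliable where the difference is near 0, as for Isg15 against monocytes. How large a difference could have been missed there was not tested.

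Against monocytes, 7 of 6298 genes differed (0.111%), and Id3 was the one that also differed in all 8 mice (0.0159% called). Id3 was at 217, 223 and 307 CPM in the monocytes of control 1, 2 and 4 and 295 and 483 CPM in those of cKO 6 and 8, with a log2 fold change of 0.68 (SE 0.26, edgeR adjusted p = 0.428) against the -2.62 in members. The effects differed by -3.36 (SE 0.50, edgeR adjusted p = 4.58e-08) in 5 mice and by -2.40 (edgeR adjusted p = 0.00701) in 8, and the call held when any of the 5 mice was left out. In macrophages Id3 was at 148, 82.0 and 206 CPM in control and 221 and 88.7 CPM in cKO mice, a difference in effect of -2.88 (SE 0.52, edgeR adjusted p = 1.01e-04), which was lost in 8 mice (-1.95, edgeR adjusted p = 0.129) and without cKO 6 (-1.80, edgeR adjusted p = 0.572).

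The other genes called against monocytes were not called in 8 mice. They were Ifitm1 (-2.03), an interferon-induced membrane protein, Tppp3 (-2.68), Ear2 (-4.58), a ribonuclease, Napsa (-1.96), the kinase gene Plk2 (3.06) and Jchain (4.32). Jchain lost its call and changed direction without the Jchain-rich cells (-0.17, edgeR adjusted p = 1). Ear2 was at 253, 0 and 23.8 CPM in control members and 13 and 0 CPM in cKO members, so control 1 carried its difference, and Ifitm1 at 268, 0 and 1069 CPM against 285 and 210 CPM, with an edgeR adjusted p of 0.352 in 8 mice.

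Against macrophages, 14 of 8795 genes differed (0.159%), and in 8 mice 2 (0.0227%). Spp1, osteopontin, kept its call in 8 mice (-3.07, edgeR adjusted p = 0.00978), with 452, 18.7 and 226 CPM in control members and 0 and 113 CPM in cKO members against 51.5, 31.4 and 58.4 CPM and 36.9 and 181 CPM in macrophages. Its difference in 5 mice was -3.56 (SE 0.60, edgeR adjusted p = 2.13e-05), and it lost its call without control 1, the mouse with its highest value (-2.55, edgeR adjusted p = 0.477). Cd63 had a cKO effect that was higher in members by 1.93 (SE 0.38, edgeR adjusted p = 0.00096), from 124, 37.5 and 249 CPM in control and 233 and 532 CPM in cKO members, and 972, 1006 and 766 CPM in control and 629 and 513 CPM in cKO macrophages. It was lost without control 2 (1.56, edgeR adjusted p = 0.131), without cKO 8 (1.13, edgeR adjusted p = 0.993) and in 8 mice (1.67, edgeR adjusted p = 0.534). Plk2 (2.61) and Ear2 (-6.50) also passed in 5 mice, with Plk2 at 403 CPM in cKO 8 and at most 131 CPM in the members of the other 4 mice tested.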

How the data were processed

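Single cells sorted from the colon of 4 control and 4 cKO mice were sequenced as 10x 3′ libraries. The authors aligned reads with Cell Ranger and STAR 2.5.3a to mm10 with an added EYFP sequence and deposited 1 table of UMI counts, not normalized, with 5947 barcodes and 16889 genes, of which 88 had no symbol in the annotation used here (GRCm38, GENCODE). Here cells were kept and chosen by the rule in the report, doublets were marked with Scrublet (scanpy 1.11.5) but kept, and UMIs were summed per mouse. The members and the gene lists were chosen with earlier results of these data known. Genes with CPM above 1 in at least 3 sums and detected in at least 20 cells were tested with edgeR 4.0.16 (TMM, quasi-likelihood, Benjamini-Hochberg, threshold 0.05; R 4.3.3). The 18 genes of the rule were counted in library sizes and not tested. At least 20 members per mouse had been planned, but 1 mouse had them, so 10 were asked for, and 4 in place of 10 per part of the window. The member sums held 10484 to 201430 UMIs per mouse, and shares and CPM of few UMIs are limited by counting error. Mice are the replicates. Genes were named if they were Slc3a2, EYFP, a proposed marker, called and without overlap between groups (10 per direction), called in a list (6 per list), among the 5 smallest adjusted p of an interaction, among the 10 largest called changes per direction between the parts of the window, or among the 15 highest ratios to other cells. Other named genes were chosen after their values were seen, among them Ly6c2, Jchain, Oas1a, H2-Aa, Apoe, Lyz2, Plac8 and the population genes. DESeq2 1.42.0, edgeR's likelihood ratio test, no TMM, no filter, other cell cut-offs and leaving out each mouse were tried as alternatives. Each fit was tested on simulated data. Some genes are not reported here.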

Additional observations from a re-analysis of the deposited data

Results flagged for a closer look

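The 36 groups of 4 control or 4 cKO mice covered some of the named genes, the share of members, and their median UMIs, genes and mitochondrial percent. Of these groups, 4 had a mouse far from the other 3 by Dixon's criterion, where chance gives about 1 in 20. Jchain was at 0 CPM in the 2 members of control 3 against 243 to 261 CPM in the other control mice, and at 32605 CPM in cKO 8 against 112 to 808 CPM in the other cKO mice, where a single member held 2006 of the UMIs. Ifi27l2a was at 6298 CPM in cKO 7 against 4271 to 4356 CPM in the other cKO mice, and Isg15 at 3336 CPM in cKO 7 against 274 to 519 CPM, on 5 members of that mouse.

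The cKO effect differed between members and monocytes for Jchain (4.32 on the log2 scale), Id3 (-3.36), Ifitm1 (-2.03), Tppp3 (-2.68) and Ear2 (-4.58), and between members and macrophages for Spp1 (-3.56), Id3 (-2.88), Ear2 (-6.50), Cd63 (1.93) and Plk2 (2.61), each by the interaction test in edgeR on 3 control and 2 cKO mice. In all 8 mice only Id3 against monocytes and Spp1 against macrophages, among these, were still called. The causes were not tested.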

How the results depend on the processing

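The numbers of genes called higher and lower in cKO members (1 and 1) were 4 and 6 with DESeq2, 8 and 7 with the likelihood ratio test, 21 and 16 without the filter, 7 and 0 in all 8 mice, 3 and 0 with C1q from 15 to under 45, 5 higher with at least 2 Ccr2 UMIs, 3 and 3 without the Jchain-rich member and 7 higher in all mice without it. Leaving out 1 mouse gave 0 to 5 higher and 0 to 4 lower in 5 mice, and 2 to 11 higher and 0 to 2 lower in all 8. Ifi27l2a stayed called and higher in every alternative that kept the 5 or 8 mice. Against monocytes (2 and 5), 1 effect was higher without the filter, 9 were lower without the Jchain-rich cells, and 0 and 1 differed in 8 mice, with 1 to 8 and 3 to 13 when 1 mouse was left out. Against macrophages (8 and 6) the counts were 1 and 1 in 8 mice, and 1 to 12 and 1 to 8 when 1 mouse was left out. TMM set the median difference of all genes at -0.12 against monocytes and -0.18 against macrophages, and library sizes alone at -0.01 and -0.04. Between the parts of the window (1 and 0), DESeq2 called 0 genes higher, library sizes without TMM, no filter and cells with at least 2000 UMIs each gave 3 and 1, and the fits without the Jchain-rich member and on 8 mice gave 2 higher, with 1 to 3 and 0 to 1 when 1 mouse was left out. Jchain turned to -0.11 without the Jchain-rich member and its difference from monocytes to -0.17. With 1 of the 5 mice left out, Jchain ran from -1.09 to 7.06, its difference from monocytes from -0.46 to 6.59, Clec4a3 from -1.14 to 0.046, Ly6a from -0.62 to 3.59 and Ly6c2 from -1.73 to 4.62, each turning without cKO 8. In 8 mice the median UMIs and genes per member were higher in cKO mice by 791 and 105 (exact permutation p = 0.343 and 0.486). The mean share in cKO mice was 5.47% without the demand for Ccr2. The cause of these changes was not tested, other than the mice, cells or genes each setting removes. Fits on all mice or without the Jchain-rich cells were chosen after seeing the data. A lone cKO mouse was assumed to vary like the others. No paired analysis was possible because the control mice carry the numbers 1 to 4 and the cKO mice 5 to 8. Depth limits mice with 2 to 5 members, where 1 UMI is worth 37.5 to 95.4 CPM.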
